A study of Homo sapiens with 12 samples.

Results

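Peaks of accessible chromatin were examined around the 8 genes FOS, FOSB, FOSL1, FOSL2, JUN, JUNB, JUND and ATF3, which encode subunits of the transcription factor AP-1 and the related factor ATF3. Every peak that overlapped a gene's interval in GRCh37 or the 25 kb to each side of it was taken. The peaks of 12 libraries merged into 118 regions at these loci, of 187088 regions in the genome. The loci held 14 regions at FOS, 22 at FOSB, 15 at FOSL1, 10 at FOSL2, 9 at JUN, 15 at JUNB, 14 at JUND and 19 at ATF3. The genes and windows were chosen by name and position. The windows were 105.4 kb long at ATF3 and 71.7 kb at FOSL2, against 51.8 to 58.4 kb at the other loci. Counts per locus were not divided by this length. The data were ATAC-seq peak lists from G401, an established rhabdoid tumour line with the genotype SMARCB1(-/-), which lacks this subunit of the SWI/SNF remodelling complexes. All cells carried that genotype and received doxycycline for 24 h, which induced GFP in the control cells or SMARCB1. During the induction they received DMSO, the vehicle, or dBRD9-A, a compound that degrades BRD9. The 4 groups were GFP with DMSO, GFP with dBRD9-A, SMARCB1 with DMSO and SMARCB1 with dBRD9-A, with 3 libraries each. All libraries come from a single cell line, and the labels do not say whether the libraries of a group were separate cultures, so p-values measure the spread between libraries, which may be technical. Peak lists give no measure of the SMARCB1 or BRD9 protein, and the cell type was not checked against markers here.

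AP-1 is a dimer of basic leucine zipper proteins. FOS family proteins (FOS, FOSB, FOSL1, FOSL2) bind DNA as partners of JUN family proteins (JUN, JUNB, JUND), which can also pair with each other, and ATF3 is a stress-induced factor that can pair with JUN proteins. FOS, FOSB, JUN, JUNB and ATF3 are known as early response genes, switched on quickly by growth factors or stress, whereas JUND is known for a steadier level. AP-1 sites are common in enhancers, where AP-1 is known to work together with SWI/SNF. SMARCB1 belongs to the canonical and the PBAF forms of SWI/SNF, and BRD9 belongs to the non-canonical form, which lacks SMARCB1.

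Promoter sequences were available for 7 of the 8 genes, with FOSL1 named only, as windows of 300 bases from 250 before to 50 after the RefSeq start in GRCh38.p14. The peaks are in GRCh37, no coordinate was carried between the builds, and the RefSeq start need not coincide with the 5′ end of the interval used for the peaks. The windows of JUN, FOSL2, JUND and FOS are shown because JUN was the only gene whose 5′ end passed the test described below, FOSL2 and JUND are promoters found in every list that did not pass it, and FOS had the shallowest peak over its 5′ end. Capitals mark matches, on either strand, to TGANTCA (the AP-1 motif), TGACGTCA (the CRE motif), TGACATCA (a variant of both), CCAAT or TATAAA. The windows lie at chr1:58783998-58784297 (JUN, minus strand), chr2:28392608-28392907 (FOSL2, plus strand), chr19:18281573-18281872 (JUND, minus strand) and chr14:75278578-75278877 (FOS, plus strand).
JUN: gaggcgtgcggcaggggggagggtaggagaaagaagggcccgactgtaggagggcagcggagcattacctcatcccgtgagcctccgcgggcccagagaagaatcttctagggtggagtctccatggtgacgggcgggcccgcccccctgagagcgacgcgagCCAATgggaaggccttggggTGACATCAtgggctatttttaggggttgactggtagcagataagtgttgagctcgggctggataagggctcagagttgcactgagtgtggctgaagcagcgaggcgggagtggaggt
FOSL2: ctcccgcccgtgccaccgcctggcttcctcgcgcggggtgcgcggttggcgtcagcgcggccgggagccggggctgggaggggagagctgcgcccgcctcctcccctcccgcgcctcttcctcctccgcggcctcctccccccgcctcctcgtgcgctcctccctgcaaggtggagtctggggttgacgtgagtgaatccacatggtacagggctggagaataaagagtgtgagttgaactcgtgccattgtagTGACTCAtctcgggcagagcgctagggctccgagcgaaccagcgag
JUND: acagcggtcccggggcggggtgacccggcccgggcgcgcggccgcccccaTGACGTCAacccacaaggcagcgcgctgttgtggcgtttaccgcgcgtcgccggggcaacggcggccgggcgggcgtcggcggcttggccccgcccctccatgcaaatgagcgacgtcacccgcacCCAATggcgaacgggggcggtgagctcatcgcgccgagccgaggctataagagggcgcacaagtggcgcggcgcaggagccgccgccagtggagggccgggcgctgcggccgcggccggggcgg
FOS: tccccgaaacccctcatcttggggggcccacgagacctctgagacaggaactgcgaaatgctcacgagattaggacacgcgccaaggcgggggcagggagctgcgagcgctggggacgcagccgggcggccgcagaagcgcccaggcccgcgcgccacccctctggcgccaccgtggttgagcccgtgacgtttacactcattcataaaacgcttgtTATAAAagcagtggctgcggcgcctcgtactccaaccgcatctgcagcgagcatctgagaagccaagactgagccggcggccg

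The JUN window held TGACATCA 67 bases before the start and CCAAT 87 bases before it. Among 35116 RefSeq promoters of the same length, TGACATCA occurred in 2.61% and CCAAT in 34.6%. FOSL2 held TGACTCA, a match to TGANTCA, 5 bases after the start, and 7.71% of promoters held TGANTCA. JUND held TGACGTCA 200 bases before the start, a motif in 1.85% of promoters, and CCAAT 74 bases before it. FOS held TATAAA 33 bases before the start, and 11.5% of promoters held it. FOSB (30 bases before) and JUNB (31 bases before) also held TATAAA close to the start, and JUNB held CCAAT 67 bases before it. ATF3 has 2 entries: the first held TGACATCA 123 bases before its start and the reverse complement of CCAAT 25 bases before it, and the second held TATAAA 230 bases before. No pair of these motifs overlapped in a window, and a match describes the letters only.

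The lists held from 33428 to 50089 peaks in GFP libraries and from 71169 to 96572 in SMARCB1 libraries. Of these, 50 to 62 peaks in GFP libraries and 57 to 74 in SMARCB1 libraries lay at the 8 loci. As a share of the list this was 0.120% to 0.156% in GFP and 0.0704% to 0.0873% in SMARCB1 libraries, and the ranges did not overlap. Read totals were not analysed here. Depth was read from the background pileup, the fragments that chance alone would put on a position, which ranged from 0.0383 to 0.0784 in GFP and from 0.0487 to 0.111 in SMARCB1 libraries. Its mean was 0.0517 ± 0.0171 in GFP and 0.0827 ± 0.0217 in SMARCB1 libraries (SD, n = 6 each). The other measure of depth, the mean summit fragments over the regions with a peak in every list, was 16.9 ± 4.71 and 17.8 ± 2.77 (SD, n = 6 each), so the 2 measures did not move alike. A weak region can be missing from the list of a shallow library, and the part of depth in the results below was not tested. Values after thinning all libraries to the lowest background pileup, called equal background, are given beside the results that change. This matches the background alone and on average lowers the summits of SMARCB1 libraries more than those of GFP libraries. A second setting cut all lists to the same number of their strongest peaks, called lists of equal length.

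The AP-1 loci held a core of regions that were open in every library, drawn as large black points in the map of regions by distance. Of the 118 regions, 34 (28.8%) had a peak in all 12 lists, against 9.68% of all regions in the genome, and are called shared regions here. A further 32 (27.1%) had a peak in 1 list, against 41.0%. Peaks in SMARCB1 libraries alone made up 40 regions (33.9%, against 62.3% of all regions), and peaks in GFP libraries alone made up 17 (14.4%, against 11.5%). FOSB, FOSL1 and JUNB had the highest shares of such regions, with 9 of 22, 7 of 15 and 8 of 15 regions in all 12 lists. JUN, FOSL2 and ATF3 were the opposite, with 1 of 9, 1 of 10 and 2 of 19, and 7, 5 and 10 of their regions were in SMARCB1 lists alone. FOS and JUND each had 3 of 14 regions in all 12 lists. These shares describe the loci and were not tested against the genome. The windows are centred on genes, whereas the genome shares take in all regions.

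**Figure D1:**
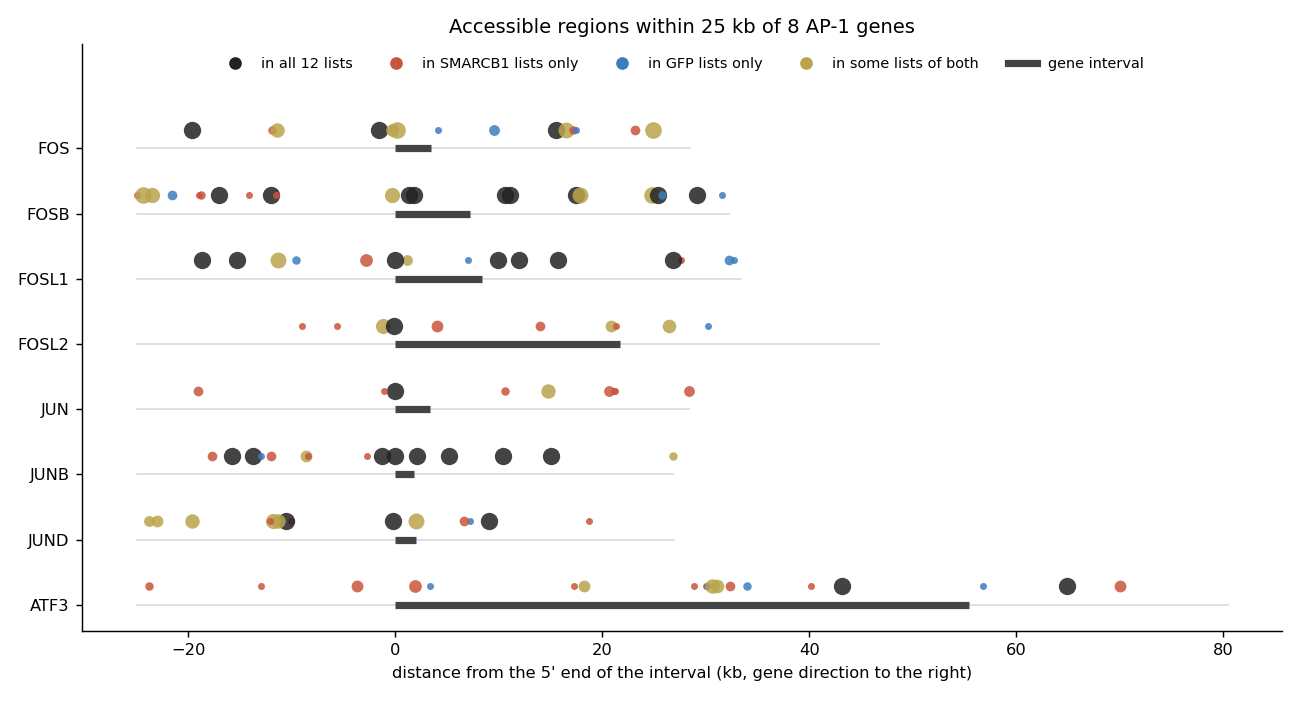
Regions within 25 kb of each gene's interval, by the distance in kb of the region's centre from the 5′ end of the interval. Point size grows with the number of lists (1 to 12) and colour gives the class: 34 of the 118 regions were in all 12 lists, 40 in SMARCB1 lists only and 17 in GFP lists only. The JUN row has 1 large black point, at the 5′ end, and 7 points in SMARCB1 lists only.

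By place, 8 regions lay within 500 bp of a 5′ end, 22 elsewhere in a gene, 44 upstream and 44 downstream. At the 5′ ends 5 of 8 regions were in all 12 lists, in the genes 3 of 22, upstream 10 of 44 and downstream 16 of 44. The median width was 281.5 bp at the 5′ ends, 171 bp in the genes, 197 bp upstream and 154 bp downstream. A window of 25 kb also takes in promoters of other genes. By the RefSeq table of GRCh38.p14, JUN, FOS and FOSL2 have 0 protein-coding neighbours within 25 kb, ATF3 has 1, FOSB has 3, JUNB and JUND have 4 each and FOSL1 has 7. A region away from the 5′ end is therefore given by its position and is not assigned to the AP-1 gene.

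At the 5′ ends, the depth of the peak was compared as scaled summit fragments: the fragments over the peak's highest position, recovered from the deposited fold and p, and scaled so that every library had the same mean log2 depth over the 18114 regions found in all 12 lists. It is a depth at a single position. Where a library had several peaks in a region the deepest was taken, so the value can depend on the region's width. Among GFP libraries the means were 31.4 ± 5.84 at FOSL1, 31.3 ± 4.59 at JUND, 29.1 ± 6.10 at FOSL2, 24.2 ± 3.83 at JUN and 21.2 ± 5.09 at JUNB (SD, n = 6 each). Neighbours in this order overlapped in range. The ranges were 24.8 to 41.8 at FOSL1, 25.02 to 37.6 at JUND, 22.4 to 36.9 at FOSL2, 20.9 to 31.4 at JUN and 13.1 to 28.8 at JUNB. The order differed among SMARCB1 libraries, with JUN highest at 44.3 ± 8.38, then FOSL2 at 35.2 ± 7.68, JUND at 30.5 ± 3.31, FOSL1 at 26.9 ± 3.88 and JUNB at 18.7 ± 4.97 (SD, n = 6 each). JUN and FOSL2 overlapped there, with lowest to highest values of 34.8 to 54.6 and 24.3 to 43.8.

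**Figure D2:**
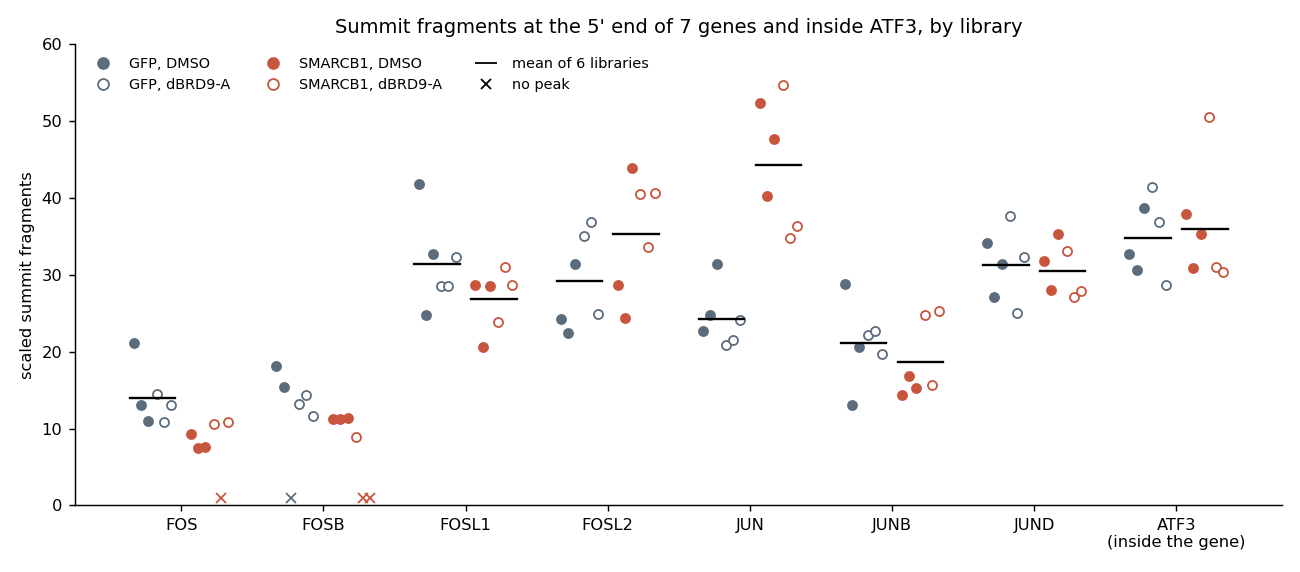
Scaled summit fragments in each library (points) at the region over or within 500 bp of each gene's 5′ end, with the mean of 6 libraries as a bar where all 6 had a peak, and crosses for libraries with no peak there. ATF3 has no such region, and the region inside its gene is shown in its place. At JUN the GFP points end at 31.4 and the SMARCB1 points begin at 34.8, whereas the other genes overlap or lack peaks in some libraries.

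The 5′ ends of FOS and FOSB had shallower peaks that some lists lacked, so they did not enter the test. FOS, the founding FOS family member, had a region over its 5′ end (chr14:75745460-75745711) in 11 of 12 lists. Its scaled summit fragments were 21.2, 13.1 and 11 in GFP DMSO, 14.4, 10.8 and 13.1 in GFP dBRD9-A, and 9.25, 7.44 and 7.59 in SMARCB1 DMSO. In SMARCB1 dBRD9-A they were 10.6 and 10.9, with no peak in replicate 2. The GFP values reached down to 10.8 and the SMARCB1 values up to 10.9, so the groups touched. A second FOS region just upstream (chr14:75745091-75745252) was in 3 of 6 GFP and 3 of 6 SMARCB1 lists. FOSB, which also makes the truncated ΔFosB protein, had a region 0.2 kb upstream of its 5′ end (chr19:45970833-45971051) in 5 of 6 GFP and 4 of 6 SMARCB1 lists. Among libraries with a peak there, GFP values ran from 11.6 to 18.1 and SMARCB1 values from 8.96 to 11.4. These did not overlap, but libraries with no peak have no value and no test was made.

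ATF3 had no region within 500 bp of the 5′ end of its interval in any list. The gene is known to have more than 1 promoter, and its deeper shared region lay inside the interval, 42.9 kb from the 5′ end (chr1:212781530-212782220), in all 12 lists. Scaled summit fragments there were 32.6, 30.6 and 38.6 in GFP DMSO, 41.4, 36.9 and 28.6 in GFP dBRD9-A, 37.9, 30.9 and 35.3 in SMARCB1 DMSO, and 50.5, 31.0 and 30.4 in SMARCB1 dBRD9-A. The groups overlapped, and the log2 difference of SMARCB1 minus GFP was 0.04 (SE 0.164, limma adjusted p 0.927).

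Among the shared regions, 3 of 34 were higher with SMARCB1 and 0 were lower. The test was limma on log2 summit fragments, relative to the mean of all shared regions, with Benjamini-Hochberg adjustment over the 18114 of them at 0.05. The 34 regions are those with a peak in every list, 34 of the 118 at the loci. In the genome the same test called 7.67% higher and 4.19% lower, so the 8.82% higher at the loci was near the background. At an unadjusted limma p under 0.05, 5 of the 34 were higher and 5 lower, against 2326 higher and 2232 lower of the 18114. The median log2 difference was -0.11 at the loci and -0.05 over all regions tested, with 35.3% and 42.3% of differences above 0. The values are relative. Scaled by the background pileup in place of the shared regions, the median over all regions tested moved to -0.65. Of the 34, 0 were then called higher and 26 lower, against 428 higher and 12860 lower of the 18114. In the genome the share of higher among the calls fell from 64.7% to 3.22%. Whether more cells were open at a site or a cell was open more often cannot be told apart in these bulk libraries.

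The 5′ end of JUN (chr1:59249630-59250078), which encodes the central AP-1 subunit, had the smallest p of the 34 in that test. Scaled summit fragments were 22.7, 24.8 and 31.4 in GFP DMSO, 20.9, 21.5 and 24.2 in GFP dBRD9-A, 52.3, 40.3 and 47.7 in SMARCB1 DMSO, and 54.6, 34.8 and 36.3 in SMARCB1 dBRD9-A. Every SMARCB1 library was above every GFP library, with 44.3 ± 8.38 against 24.2 ± 3.83 (SD, n = 6 each), a ratio of 1.83. The log2 difference was 0.84 (SE 0.157, limma adjusted p 0.00161). It was 0.81 within DMSO (SE 0.222, limma adjusted p 0.0446) and 0.86 within dBRD9-A (SE 0.222, limma adjusted p 0.0285). Scaled by the background pileup it was 0.24 (limma adjusted p 0.242), and with the authors' fold in place of fragments 0.29 (limma adjusted p 0.196). The JUN promoter was thus higher relative to other regions open in all libraries, and its difference stayed above 0 under both of these settings while its call did not hold.

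The other regions that rose lay upstream of JUND and FOSB. At JUND, the steadier JUN family member, the region 10.3 kb upstream (chr19:18402780-18403396) had scaled summit fragments of 13.5, 17.7 and 14.6 in GFP DMSO and 14.4, 19.1 and 12.3 in GFP dBRD9-A. It had 23.6, 24.3 and 25.7 in SMARCB1 DMSO and 24.7, 25.9 and 26.1 in SMARCB1 dBRD9-A. The groups did not overlap, and the SMARCB1 libraries lay close together, at 25.1 ± 1.01 against 15.3 ± 2.60 in GFP (SD, n = 6 each). The log2 difference was 0.69 (SE 0.145, limma adjusted p 0.00389), 0.09 scaled by the background pileup (limma adjusted p 0.671) and 0.42 with the authors' fold (limma adjusted p 0.0875), both of which ended the call. The 5′ end of JUND itself (chr19:18392282-18393151) had a log2 difference of -0.03 (SE 0.148, limma adjusted p 0.938).

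At FOSB the region 11.7 kb upstream (chr19:45958997-45959511) had scaled summit fragments of 29.6, 20.1 and 30.2 in GFP DMSO and 28.6, 16.7 and 34.5 in GFP dBRD9-A. It had 44.1, 36.5 and 41.9 in SMARCB1 DMSO and 45.5, 38.7 and 44.8 in SMARCB1 dBRD9-A. Replicate 2 was lowest in all 4 groups, and the GFP and SMARCB1 ranges did not overlap. The log2 difference was 0.67 (SE 0.178, limma adjusted p 0.0194), 0.07 scaled by the background pileup (limma adjusted p 0.720), 0.29 with the authors' fold (limma adjusted p 0.205), and 0.58 without GFP DMSO replicate 2 (limma adjusted p 0.0548). Each of these settings ended the call. The 3 regions at JUN, JUND and FOSB were also those of the 34 in which every SMARCB1 library exceeded every GFP library, as 4.30% of all regions tested did, and 0 of the 34 had every GFP library above every SMARCB1 library, against 1.83%.

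**Figure D3:**
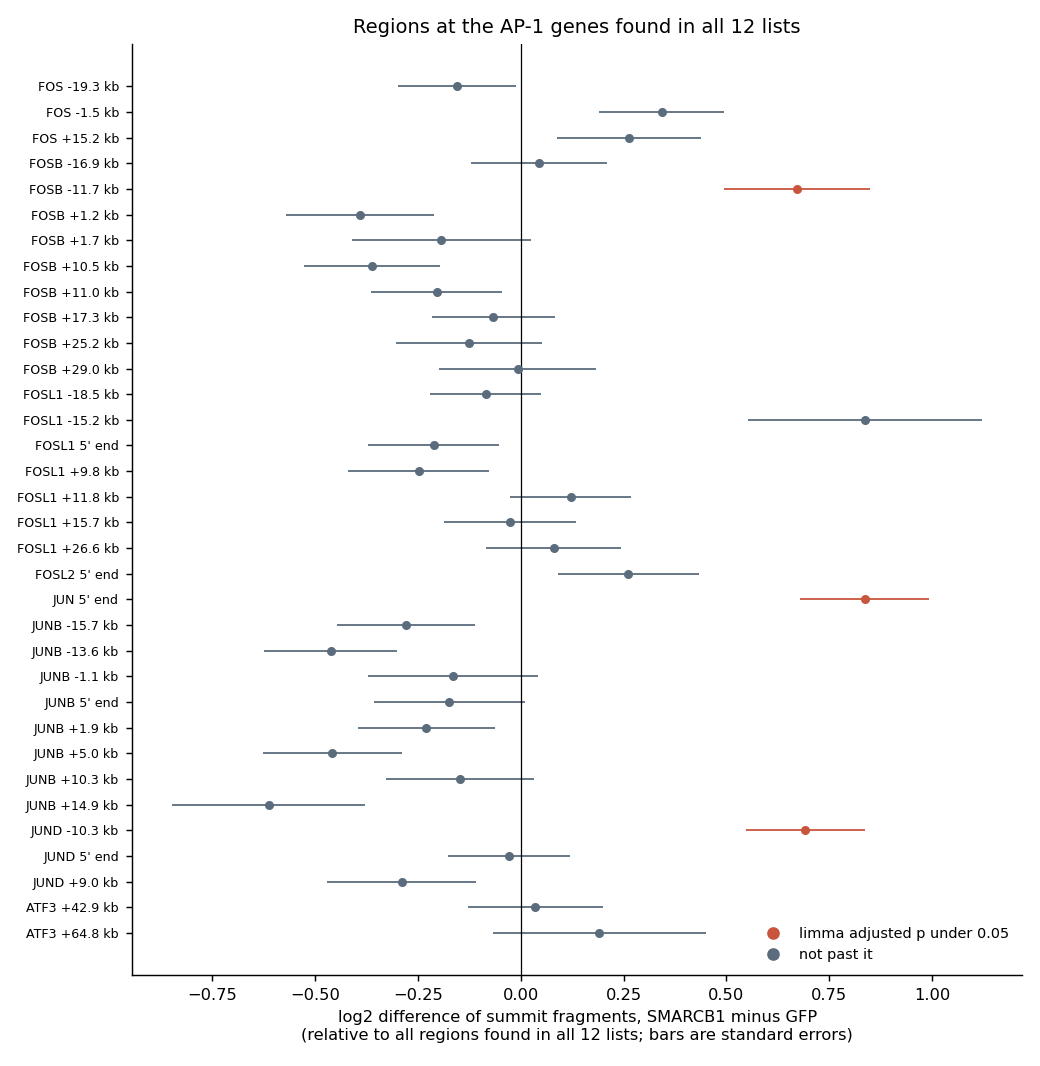
Log2 difference of summit fragments, SMARCB1 minus GFP, for each of the 34 regions found in all 12 lists (points, with standard errors as bars), labelled by gene and distance from the 5′ end. The 3 regions past the limma threshold (JUN 5′ end, JUND 10.3 kb upstream, FOSB 11.7 kb upstream) lie at 0.67 to 0.84. FOSL1 15.2 kb upstream lies at 0.84 with a wide bar, and the 8 JUNB regions all lie below 0. Of the 34 regions, 12 lie above 0.

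FOSL1, a FOS family gene prominent in invasive tumours, had a region 15.2 kb upstream (chr11:65683186-65683441) with a difference as large as that of JUN and a wider spread. Scaled summit fragments were 14.3, 14.2 and 21.8 in GFP DMSO, 17.0, 10.8 and 24.2 in GFP dBRD9-A, 33.8, 19.6 and 54.3 in SMARCB1 DMSO, and 24.7, 15.6 and 53.3 in SMARCB1 dBRD9-A. The SMARCB1 values spanned the upper GFP values, with replicate 3 highest in each group. The log2 difference was 0.84 (SE 0.285, limma adjusted p 0.0669) and did not pass. The FOSL1 5′ end (chr11:65667845-65668155) gave -0.21 (SE 0.16, limma adjusted p 0.455). The FOSL2 5′ end (chr2:28615466-28615850), the only shared region at this gene, gave 0.26 (SE 0.172, limma adjusted p 0.380), with GFP values of 22.4 to 36.9 and SMARCB1 values of 24.3 to 43.8. At FOS, the region 1.5 kb upstream of the 5′ end (chr14:75743702-75744026) gave 0.34 (SE 0.152, limma adjusted p 0.166).

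By the fold that the authors' peak caller gave, ranked within each list and averaged, the strongest region at 5 of the 8 loci lay away from the 5′ end and did not pass the test. It was 19.3 kb upstream at FOS (chr14:75725499-75726181), with 42.0 ± 6.06 scaled summit fragments in GFP and 37.7 ± 5.90 in SMARCB1 libraries (SD, n = 6 each, log2 difference -0.15, limma adjusted p 0.556). At FOSB it was 17.3 kb downstream of the 5′ end (chr19:45988541-45988887), with 28.2 ± 5.14 and 26.6 ± 2.61 (SD, n = 6 each, -0.07, limma adjusted p 0.834). At FOSL1 it was 18.5 kb upstream (chr11:65686479-65686894), with 43.1 ± 3.30 and 40.7 ± 4.53 (SD, n = 6 each, -0.08, limma adjusted p 0.756). At JUND it was 9.0 kb downstream of the 5′ end (chr19:18383353-18383454), with 22.1 ± 4.82 and 18.1 ± 4.52 (SD, n = 6 each, -0.29, limma adjusted p 0.350). All 4 overlapped between GFP and SMARCB1 libraries. At JUN and FOSL2 the strongest region by this rank was the 5′ end, and at ATF3 it was the region 1.8 kb inside the gene described below. The ATF3 rank is averaged over the 6 SMARCB1 lists that held that region, at the 91.6th percentile, whereas the region 42.9 kb inside the gene (chr1:212781530-212782220) was at 88.7 over all 12 lists. In SMARCB1 libraries the latter had the deeper summit, at 36.0 ± 7.70 scaled summit fragments against 18.0 ± 2.40 (SD, n = 6 each).

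At JUNB, another early response gene, all 8 shared regions had values below 0 and 0 passed the test. Values above 0 made up 35.3% of the 34 regions and 42.3% of all regions tested. The 8 regions share a window with 4 protein-coding neighbours, and they were not tested as a set. The log2 differences ran from -0.61 (14.9 kb downstream of the 5′ end, SE 0.234, limma adjusted p 0.105) to -0.15. The strongest of them by fold rank, 5.0 kb downstream of the 5′ end (chr19:12907355-12907666), had 34.8 ± 6.07 scaled summit fragments in GFP and 25.4 ± 6.35 in SMARCB1 libraries (SD, n = 6 each), a log2 difference of -0.46 (SE 0.169, limma adjusted p 0.0931). The JUNB 5′ end (chr19:12902167-12902403) gave -0.17 (SE 0.184, limma adjusted p 0.617), with scaled summit fragments of 28.8, 13.1 and 20.6 in GFP DMSO, 22.1, 22.7 and 19.7 in GFP dBRD9-A, 14.4, 16.8 and 15.2 in SMARCB1 DMSO, and 24.7, 15.6 and 25.3 in SMARCB1 dBRD9-A. Within DMSO the region at 14.9 kb (chr19:12917213-12917460) was lower, at -1.41 (SE 0.331, limma adjusted p 0.0196). This region had 4, 12 and 3 fragments before scaling in SMARCB1 DMSO replicates 1, 2 and 3, so the call rests on 2 weak peaks. Its scaled summit fragments were 16.6, 15.4 and 14.6 in GFP DMSO and 4.12, 11.2 and 2.82 in SMARCB1 DMSO. With dBRD9-A they were 10.6, 7.28 and 11.6 in GFP and 9.79, 9.24 and 15.1 in SMARCB1, a log2 difference of 0.19 (SE 0.331, limma adjusted p 0.847). The difference between the treatments was 1.60 (SE 0.469, limma adjusted p 0.916) and did not pass. Of the 34 regions limma called 1 higher (3.38% in the genome) and 1 lower (1.25%) within DMSO, and 2 higher (4.39%) and 0 lower (1.21%) within dBRD9-A.

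Regions that appeared with SMARCB1 made up a smaller share at the AP-1 genes than in the genome, a difference that was not tested. The windows are centred on genes, whereas the genome share takes in all regions, and no set of gene-near regions was compared. The smaller share is therefore not read as particular to AP-1 genes. With a peak in 3 of 3 SMARCB1 and 0 of 3 GFP libraries, 5 of the 118 regions (4.24%) appeared in DMSO, against 11.3% of all regions, and 5 (4.24%) in dBRD9-A, against 10.6%. Only 2 (1.69%) did so in both treatments, against 7.29% of all regions. The opposite pattern occurred in 0 regions in DMSO (0.323% in the genome) and 0 in dBRD9-A (0.302%). A comparison of 3 with 3 libraries cannot give an exact p below 0.1, so these are counts without a test. In the exact permutation test of presence over all 12 libraries, stratified by treatment, 2 of 48 regions in 2 to 10 lists (4.17%) were gained at an adjusted p under 0.05, against 15.4% in the genome. Only regions in 6 of 6 libraries of an induction and 0 of 6 of the other passed. These are therefore the same 2 regions, set against another total. At an unadjusted exact p under 0.05 it was 6 of 48 (12.5%), against 25.9%. The number lost was 0 at either threshold, against 0.131% in the genome at the adjusted threshold.

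The gained regions lay at FOSL1 and ATF3. The FOSL1 region, 2.7 kb upstream of the 5′ end (chr11:65670652-65670945), had no peak in the 6 GFP libraries and scaled summit fragments of 23.6, 10.3 and 31.4 in SMARCB1 DMSO and 25.6, 13.1 and 25.3 in SMARCB1 dBRD9-A. The replicates numbered 2 were lowest in both groups. The ATF3 region, 1.8 kb inside the gene (chr1:212740465-212740686), had no peak in the 6 GFP libraries and 14.4, 19.6 and 19.99 in SMARCB1 DMSO and 19.7, 15.6 and 18.5 in SMARCB1 dBRD9-A. It is the region of ATF3 nearest to the 5′ end of the interval. Each had an exact permutation p of 0.005, the smallest the test can give, and an adjusted p of 0.0321. Each was found in 6 of 6 SMARCB1 and 0 of 6 GFP libraries at equal background too. Where a peak had to cover 50% of the region to count as present, the stratified test called 0 regions, so neither call held.

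**Figure D4:**
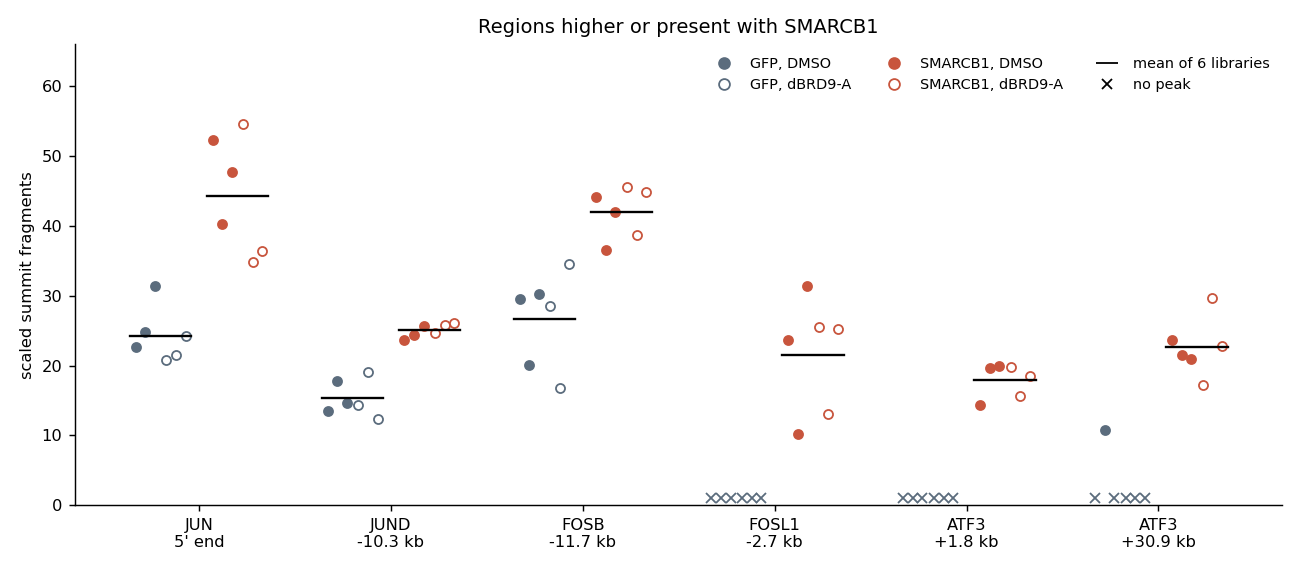
Scaled summit fragments in each library (points, with bars for the mean of 6 libraries where all had a peak, and crosses for no peak) at the 3 shared regions that passed the test and at 3 regions that were in few or no GFP lists. At FOSL1 -2.7 kb and ATF3 +1.8 kb all 6 GFP libraries have crosses and the SMARCB1 points lie between 10.3 and 31.4. At ATF3 +30.9 kb a single GFP library has a peak.

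Of the 6 regions gained at an unadjusted exact p under 0.05, 4 were at ATF3, which had the longest window (105.4 kb). The ATF3 region 30.9 kb inside the gene (chr1:212769585-212769955) had a peak in GFP DMSO replicate 2 alone among the GFP libraries, at 10.7 scaled summit fragments. SMARCB1 values there were 23.6, 21.5 and 20.9 in DMSO and 17.3, 29.7 and 22.8 in dBRD9-A, all above the GFP value. It had an exact permutation p of 0.020 (adjusted p 0.0757) and 6 of 6 against 1 of 6 libraries at equal background. The ATF3 regions 3.5 kb upstream (chr1:212734798-212735193) and 69.9 kb downstream of the 5′ end (chr1:212808569-212808819) were each in 5 of 6 SMARCB1 and 0 of 6 GFP lists, with the same p. They were weak, at no more than 8.54 scaled summit fragments, and were left in 3 and 4 SMARCB1 libraries at equal background. The sixth, inside FOSL2 at 3.9 kb (chr2:28619645-28619853), was in 5 of 6 SMARCB1 and 0 of 6 GFP lists, with 10.3, 16.8 and 13.3 in DMSO and 13.1 and 9.18 in dBRD9-A, and was left in 4 SMARCB1 libraries at equal background.

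Further regions leaned to a single induction without passing. A JUND region 19.5 kb upstream (chr19:18411970-18412192) was in 6 of 6 SMARCB1 lists, at 11.8 to 21.1 scaled summit fragments, and in 2 of 6 GFP lists, at 4.35 and 8.46 (exact permutation p 0.080, adjusted p 0.210). At FOS a region 9.4 kb downstream of the 5′ end (chr14:75754927-75755065) was in 4 of 6 GFP lists and 0 of 6 SMARCB1 lists, with the same p. Its GFP values were 5.11, 6.21, 6.10 and 5.66, so it was weak, and 3 GFP libraries kept it at equal background. This was the region most one-sided towards GFP of the 17 found in GFP lists alone, of which 11 were in a single list and 6 in more than 1.

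Peak numbers per locus rose at JUN, FOSL2 and ATF3 in the full lists, which are longer in SMARCB1 libraries. With lists of equal length all 3 calls ended, at 0 peaks for JUN (exact permutation p 1), -0.500 for FOSL2 (exact permutation p 0.630) and 1.67 for ATF3 (exact permutation p 0.070). FOS, FOSB and JUNB were then lower, at -4, -4.33 and -1.33 peaks (exact permutation p 0.005, 0.005 and 0.045). How often windows elsewhere in the genome were lower in this setting was not computed. These calls are therefore not read as particular to the AP-1 loci. The JUN locus had 2, 1 and 1 peaks in GFP DMSO, 1, 1 and 2 in GFP dBRD9-A, 4, 4 and 4 in SMARCB1 DMSO, and 5, 4 and 6 in SMARCB1 dBRD9-A. Every SMARCB1 library exceeded every GFP library, by 3.17 peaks on average (two-sided stratified exact permutation p 0.005). The added JUN peaks were weak. The regions 28.3 kb and 20.5 kb from the 5′ end, downstream of the gene, were each in 4 SMARCB1 and 0 GFP lists, and at equal background 1 and 2 SMARCB1 libraries kept them. The region 14.6 kb from it was in 6 SMARCB1 and 2 GFP lists, and at equal background in 2 and 2. At equal background the JUN difference was 1.33 peaks (exact permutation p 0.050), and among peaks whose −log10 q reached 5 it was 0.667 (exact permutation p 0.350), which ended the call.

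The ATF3 locus had 5, 6 and 2 peaks in GFP DMSO, 2, 4 and 4 in GFP dBRD9-A, 8, 11 and 9 in SMARCB1 DMSO, and 9, 7 and 8 in SMARCB1 dBRD9-A. The groups did not overlap, and the mean difference was 4.83 peaks (exact permutation p 0.005). The difference was 4 at equal background (exact permutation p 0.005), and 1.67 with lists of equal length, which ended the call. FOSL2 had 1, 2 and 2 peaks in GFP DMSO, 2, 3 and 4 in GFP dBRD9-A, 7, 5 and 6 in SMARCB1 DMSO, and 6, 4 and 3 in SMARCB1 dBRD9-A. The groups overlapped at 3 and 4 peaks, with a mean difference of 2.83 (exact permutation p 0.025), and 1.5 at equal background (exact permutation p 0.080). Bases covered by peaks separated the groups at all 3 loci: from 230 to 495 in GFP and 703 to 1108 in SMARCB1 at JUN, 342 to 679 and 738 to 1166 at FOSL2, and 672 to 1007 and 1642 to 2356 at ATF3 (exact permutation p 0.005 each).

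Differences of this kind were common in the genome. The 3 of 8 loci with a higher peak number at an exact p under 0.05 are 37.5%, and of 11690 tiles of 55 kb with a region in all 12 lists 44% were higher and 0.163% lower by the same test. The windows of ATF3 (105.4 kb) and FOSL2 (71.7 kb) were longer than these tiles. For covered bases, 4 of 8 loci (50%) were higher, with FOSL1 as the fourth, against 60.2% higher and 0.342% lower. The 3 loci with every SMARCB1 library above every GFP library in covered bases are 37.5% of 8, against 31.5% of the tiles, and 0 had the opposite separation, against 0.0599%.

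At the other loci the peak number did not pass. The differences of SMARCB1 minus GFP were 0.833 at FOS (exact permutation p 0.270), 0 at FOSB (p 1 by the same exact test), 0.167 at FOSL1 (exact p 1), 0.667 at JUNB (exact p 0.440) and 1.17 at JUND (exact p 0.415). FOSB had 12 to 16 peaks in GFP and 12 to 16 in SMARCB1 libraries, the highest number of any locus here. FOSL1 covered bases were 1767 ± 234 in GFP and 2084 ± 168 in SMARCB1 libraries (SD, n = 6 each, exact permutation p 0.040). The 2 loci with every SMARCB1 library above every GFP library in peak number are 25% of 8. Across the genome 20.9% of 38825 tiles with any peak, and 19.1% of the 11690, met the same rule, so the share at the loci was near the background. The opposite separation occurred at 0 of the 8 loci, against 0.0438% and 0.0257% of those tiles. The p-values are unadjusted, for 8 loci in each of the measures.

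**Figure D5:**
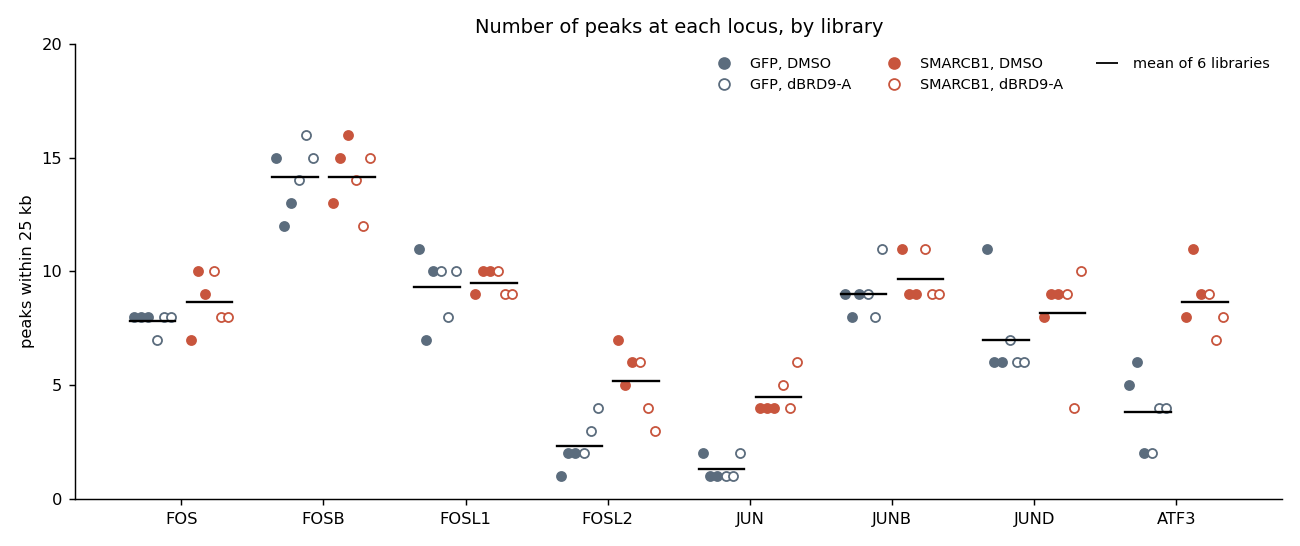
Number of peaks within 25 kb of each gene's interval in each library (points), with the mean of 6 libraries as a bar. JUN (1 to 2 against 4 to 6) and ATF3 (2 to 6 against 7 to 11) separate GFP from SMARCB1 libraries, whereas FOSB runs from 12 to 16 in both.

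No change with dBRD9-A was detected at the AP-1 loci in GFP or in SMARCB1 cells. A change from 3 of 3 to 0 of 3 libraries, or the reverse, occurred in 0 of the 118 regions in GFP cells (0.135% of all regions appeared and 0.121% disappeared) and in 0 in SMARCB1 cells (0.266% and 0.238%). The stratified exact test of presence called 0 of 48 regions for dBRD9-A at an unadjusted p under 0.05, against 0.0645% in the genome. In limma, 0 of the 34 shared regions passed over both inductions, with a smallest adjusted p of 0.866, and 0 had an unadjusted p under 0.05 in that contrast. Over all 18114 regions that contrast called 0% in either direction, with 550 higher and 610 lower at an unadjusted limma p under 0.05. The log2 differences of dBRD9-A minus DMSO at the 34 regions ran from -0.26 to 0.28, with a median of 0.02. At the JUN 5′ end it was -0.20 (SE 0.157, limma adjusted p 0.915). Within GFP cells limma called 0 of the 34, against 0.0662% lower in the genome, and within SMARCB1 cells 0, against 0%. At an unadjusted limma p under 0.05 it was 0 of 34 within GFP cells, against 639 higher and 744 lower of the 18114. Within SMARCB1 cells it was 1 of 34, against 349 higher and 327 lower of the 18114. That was the JUNB region 14.9 kb downstream of the 5′ end (log2 difference 0.97, limma p 0.00962, adjusted p 0.9995). For the difference between the inductions it was 1 of 34, the same region (limma p 0.00331, adjusted p 0.916). In the genome 477 were higher and 418 lower by that difference.

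Peak numbers gave the same picture, with a smallest exact permutation p of 0.255 over the 8 loci for dBRD9-A minus DMSO, at ATF3, where the means were 6.83 peaks in DMSO and 5.67 in dBRD9-A. For covered bases the smallest exact p was 0.290. The difference between the SMARCB1 effects in the presence of dBRD9-A and of DMSO had a smallest exact permutation p of 0.065, at FOSL2, where the peak number rose by 3 fewer with dBRD9-A. For the 34 shared regions the smallest limma adjusted p of that difference was 0.916. A p that misses the threshold does not show that dBRD9-A had no effect at these genes: the standard error at the JUN 5′ end was 0.157 on the log2 scale.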

How the data were processed

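ATAC-seq peak lists of 12 libraries in 4 groups of 3 were used. Per the submitters' processing notes, the tools included BWA 0.7.12-r1039, SAMtools 1.2, bedtools 2.24.0 and MACS2 2.1.1.20160309, with the build hg19 (GRCh37); settings are not given in the sources used here. The lists hold nucleosome-free peaks, called per library, per the labels. The deposited columns give a score, the fold (a ratio of summit pileup to background) and the −log10 of p and q, as the authors' peak caller wrote them, and the score was not used. The deposited summit position served an alternative.

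Summit pileups were recovered from the fold and −log10 p as whole fragments for 100% of peaks (tolerance 0.001), and all 741 peaks at the loci had 1 solution. Peaks overlapping by at least 1 bp were merged. The background pileup was the 1st percentile of recovered backgrounds. Regions in all 12 lists were tested with limma 3.58.1 (R 4.3.3) on log2(fragments + 1), regions in 2 to 10 lists with exact permutation of presence (400 arrangements, smallest p 0.005), both adjusted by Benjamini-Hochberg over the genome, and peak numbers and covered bases with exact permutation, two-sided. The procedures were tested on simulated data. Python 3.11.15 was used. Named regions were, at each locus, the region at the 5′ end, those in 6 of 6 against 0 of 6 libraries, those past the limma threshold, and the one of highest mean fold percentile. Other regions printed were chosen after their values were seen. The members, lists and tests were chosen with earlier results of these data known. Other genes of the AP-1 pathway were not analysed here, because no GRCh37 annotation was used.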

Additional observations from a re-analysis of the deposited data

How the results depend on the processing

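Of 176 values of 25 results under 15 alternatives other than leaving out a library, 122 held (no change of direction or call, or a count within 1.5 times, which need not be the same loci or regions), 29 counts moved further, 14 values lost a call, 2 gained a call and 9 reversed. The cause was not tested. The number gained with SMARCB1 in DMSO was 5, and was 3 at equal background, 2 with lists of equal length, 15 in windows of 50 kb and 14 when 2 of 3 libraries against 0 of 3 sufficed. That gained in dBRD9-A was 5, and was 3 with equal length, with presence by 50% cover and in windows of 10 kb, 14 in windows of 50 kb and 13 under the looser rule. Regions lost in DMSO (0) were 4 with equal length and 4 under the looser rule, and those lost in dBRD9-A (0) were 1 at equal background, 4 with equal length and 2 under the looser rule. Regions changed with dBRD9-A in GFP cells (0) were 1 with a −log10 q of at least 5, 1 by 50% cover and 1 under the looser rule, and in SMARCB1 cells (0) 1 under the looser rule. The stratified test called 0 regions by 50% cover and 9 in windows of 50 kb. The number of loci with an exact p under 0.05 for peak number (3, at JUN, FOSL2 and ATF3) was 1 with a −log10 q of at least 5 and 1 at equal background, and with equal length it was 3 other loci, FOS, FOSB and JUNB, which were lower. Regions called higher in limma (3) were 0 scaled by the background pileup, 1 with the authors' fold (FOS 1.5 kb upstream, log2 0.59, limma adjusted p 0.0205, and none of the 3) and 1 in windows of 10 kb. Those called lower (0) were 26 scaled by the background pileup, where limma called 12860 of all 18114 lower, and 2 with an intensity trend.

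Peak number differences reversed at FOS to -0.167 (−log10 q of at least 5), -4 (equal length) and -1 (10 kb), at JUNB to -0.500 (equal background), -1.33 (equal length) and -0.167 (10 kb), and with equal length at FOSL1 to -1, at FOSL2 to -0.500 and at JUND to -0.333. Of these loci only FOSL2 had passed the exact test, and with equal length FOS (exact permutation p 0.005) and JUNB (exact p 0.045) passed it as lower. With lists of equal length FOSB also fell, by 4.33 peaks (exact permutation p 0.005), JUN was at 0 and ATF3 at 1.67 (exact p 0.070). In windows of 50 kb FOS rose by 3.5 (exact p 0.005).

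Leaving out each library in turn gave 245 of 264 values that held by the same rule, under which a count may change within 1.5 times. The FOSB peak number difference was 0 with all libraries, so it had no direction to change, and it ran from -0.333 to 0.417. The gained numbers ran from 6 to 9 in DMSO (9 without SMARCB1 DMSO replicate 2 or 3) and from 5 to 11 in dBRD9-A (11 without SMARCB1 dBRD9-A replicate 2). The lost numbers ran from 0 to 3 in DMSO (3 without GFP DMSO replicate 2, 1 without replicate 3) and from 0 to 2 in dBRD9-A (2 when GFP dBRD9-A replicate 1 was left out and 1 when SMARCB1 dBRD9-A replicate 1 was). Numbers changed with dBRD9-A ran from 0 to 1 in GFP cells (1 without GFP DMSO replicate 1) and from 0 to 2 in SMARCB1 cells (2 when SMARCB1 dBRD9-A replicate 1 was left out, 1 when its replicate 2 or SMARCB1 DMSO replicate 3 was). Stratified calls ran from 2 to 4 (4 without SMARCB1 dBRD9-A replicate 2). Loci called for peak number ran from 3 to 4 (FOS was at 1.25, exact p 0.030, without SMARCB1 DMSO replicate 1), and for dBRD9-A from 0 to 1 (without GFP DMSO replicate 3). Limma calls ran from 2 to 4 higher and from 0 to 1 lower (1 without SMARCB1 DMSO replicate 2 or SMARCB1 dBRD9-A replicate 2). The FOSL1 peak number difference ran from -0.417 to 0.583, negative without GFP DMSO replicate 2 or GFP dBRD9-A replicate 2.

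Replicate numbers are shared by the groups, but the labels do not say that they mark a pairing. The numbers that open the sample titles run consecutively through the groups within each replicate number. Same-numbered libraries correlated at 0.0526 to 0.236 in 18 pairs and differently numbered ones at -0.177 to 0.0165 in 36, and 12 of 12 libraries correlated best with their own number, which is a hint from the data. With the replicate block, the stratified test called 0 regions (smallest p 0.03125, smallest adjusted p 0.201), limma called 4 regions higher (the 3 and FOSL1 15.2 kb upstream, adjusted p 0.00235) and 1 lower (JUNB 13.6 kb upstream, adjusted p 0.0489), and the FOSL2 peak number had an exact p of 0.0938.

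Depth limits these lists: weak regions can be absent from the list of a shallow library, pileups below the peak threshold have no value, and peak presence says nothing about expression of the AP-1 genes.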
